A study of Mus musculus with 8 samples.

Results

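The transcripts of 9 genes that mark neural stem cells of the adult brain were followed in the dentate gyrus of mice that lack Derlin-1 or Derlin-2. The genes were Nes, Sox2, Pax6, Hopx, Hes1, Hes5, Id4, Fabp7 and Lpar1, and every probe that the deposited annotation assigns to one of these symbols was taken, without regard to its signal. This gave 16 of the 56605 probes on the array, of which 12 passed the filter on dim signal together with 40001 probes in all. Each of the 9 genes kept a probe that was well above background on all 8 arrays. In the whole series 19922 genes had a probe that passed the filter. Where a gene had more than 1 probe, its brightest probe is called the leading probe and stands for the gene.

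Radial glia-like stem cells lie in the subgranular zone of the dentate gyrus, where they remain quiescent for long periods and divide to give intermediate progenitors and then granule neurons. Notch signals from neighbouring cells switch on the repressors Hes1 and Hes5, BMP signals act through Id proteins, and both are known to hold stem cells in quiescence, while Sox2 maintains their multipotent state. Most of these genes are also transcribed in other cells of the tissue. Sox2, Hopx, Hes5, Id4 and Fabp7 are found in astrocytes as well, Nes in endothelium and Lpar1 in oligodendrocytes. In RNA of whole tissue, fewer cells of a type and less RNA per cell cannot be told apart.

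The RNA came from male C57BL/6 animals at 8 to 9 weeks of age and was hybridised to 8 single-colour Agilent arrays, 2 for each of 4 groups. Derlin-1 control mice carried Derl1 flox/flox and Derlin-2 control mice carried Derl2 flox/flox, while the KO mice of each line (Derlin-1 KO, Derlin-2 KO) carried the same floxed gene together with nestin-Cre. The Derlins sit in the membrane of the endoplasmic reticulum and help to remove proteins that have failed to fold. Cre was driven by the promoter of nestin, the product of the marker Nes, so that recombination reached neural progenitors and the neurons and glia derived from them rather than adult stem cells alone, and no group carried Cre without a floxed gene. The labels of the KO samples give the floxed genotype without Cre, and the groups rest on the sample titles. They do not state that the 2 arrays of a group came from separate animals, so the p-values measure the spread between these samples, which may be technical.

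On single arrays 38247 to 40088 probes stood well above background, and replicate arrays correlated with a Pearson r of 0.987 to 0.995. Each line lay on its own slide, with controls and KO samples of a line side by side, so slide and line cannot be told apart. Derl2 was lower in Derlin-2 KO by 0.64 on the log2 scale (SE 0.097, limma adjusted p = 0.259). Derl1 gave 10.85 and 10.76 in Derlin-1 control and 10.57 and 10.66 in Derlin-1 KO, so both KO arrays lay below both controls, in the direction of the labels. The difference of -0.19 (SE 0.10, adjusted p = 0.9997) was not called, and where the Derl1 probe lies relative to the floxed part was not examined.

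The upstream sequences of 2 markers are shown because one encodes a direct effector of Notch and the other gave the smallest p-value in the comparisons below. Both are the 250 bases before the annotated start, 5′ to 3′ on the strand of the gene, from RefSeq on GRCm38.p6. Capitals mark the core of the site of the Notch effector RBPJ, TGGGAA or its reverse complement, and the N-box of Hes repressors, CACNAG or its reverse complement; no match of one motif overlapped a match of the other in these windows. The Hes5 window is chr4:154960673-154960922 and the Fabp7 window is chr10:57784673-57784922, both on the plus strand.
Hes5: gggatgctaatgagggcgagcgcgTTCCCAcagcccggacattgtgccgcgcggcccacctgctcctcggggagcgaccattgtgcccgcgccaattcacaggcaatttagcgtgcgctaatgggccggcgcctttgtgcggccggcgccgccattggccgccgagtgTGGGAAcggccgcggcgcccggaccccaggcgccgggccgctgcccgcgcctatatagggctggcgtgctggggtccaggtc
Fabp7: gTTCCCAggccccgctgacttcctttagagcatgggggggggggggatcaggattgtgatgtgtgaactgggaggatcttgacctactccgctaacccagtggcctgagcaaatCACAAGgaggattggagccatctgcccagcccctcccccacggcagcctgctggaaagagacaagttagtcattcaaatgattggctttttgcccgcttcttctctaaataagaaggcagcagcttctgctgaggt

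Hes5 held 2 RBPJ cores, beginning 226 and 82 bases before the start on opposite strands, and no N-box. Fabp7 held 1 RBPJ core 249 bases and 1 N-box 136 bases before the start. Upstream windows were found for 8 of the 9 markers, 12 windows in all. An RBPJ core was present in 3 of these 12 windows (25%) and in 21.6% of 32851 mouse promoter windows of the same length, and an N-box in 6 (50%) and in 36.7%. These are matches of letters, and no binding was measured.

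No marker passed the adjusted threshold of 0.05 in either line. In the Derlin-1 line 0 of the 9 genes were called by limma after Benjamini-Hochberg adjustment over all probes, as was 0% of all probes, and 0 had an unadjusted p under 0.05, against 4.72% of all probes. In the Derlin-2 line 0 of 9 were called, against 0.0452% of all probes, and 2 had an unadjusted p under 0.05, Fabp7 and Lpar1, against 5.55% of all probes. Both were higher in Derlin-2 KO. This count was 1 with 75th percentile scaling, with the deposited values, without the filter and without the last rows of the array, 1 without Derlin-1 KO 1, Derlin-1 KO 2, Derlin-2 control 2 or Derlin-2 KO 1, 3 without Derlin-2 control 1 and 0 without Derlin-2 KO 2. The median log2 difference of the 9 genes was 0.0068 in the Derlin-1 line, where the median of all genes was -0.014, and 0.12 in the Derlin-2 line, where the median of all genes was 0.015. The latter median of the markers rested on single arrays, being -0.0046 without Derlin-2 control 1, 0.022 without Derlin-2 control 2, 0.020 without Derlin-2 KO 1 and 0.21 without Derlin-2 KO 2, and it was 0.045 without the last rows of the array. Without the last rows Fabp7 has no probe left, so it drops out of this median and of the count above. Hes5 is then read by its dimmer probe. In each line 5 of the 9 were higher in KO and 4 were lower.

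**Figure D1:**
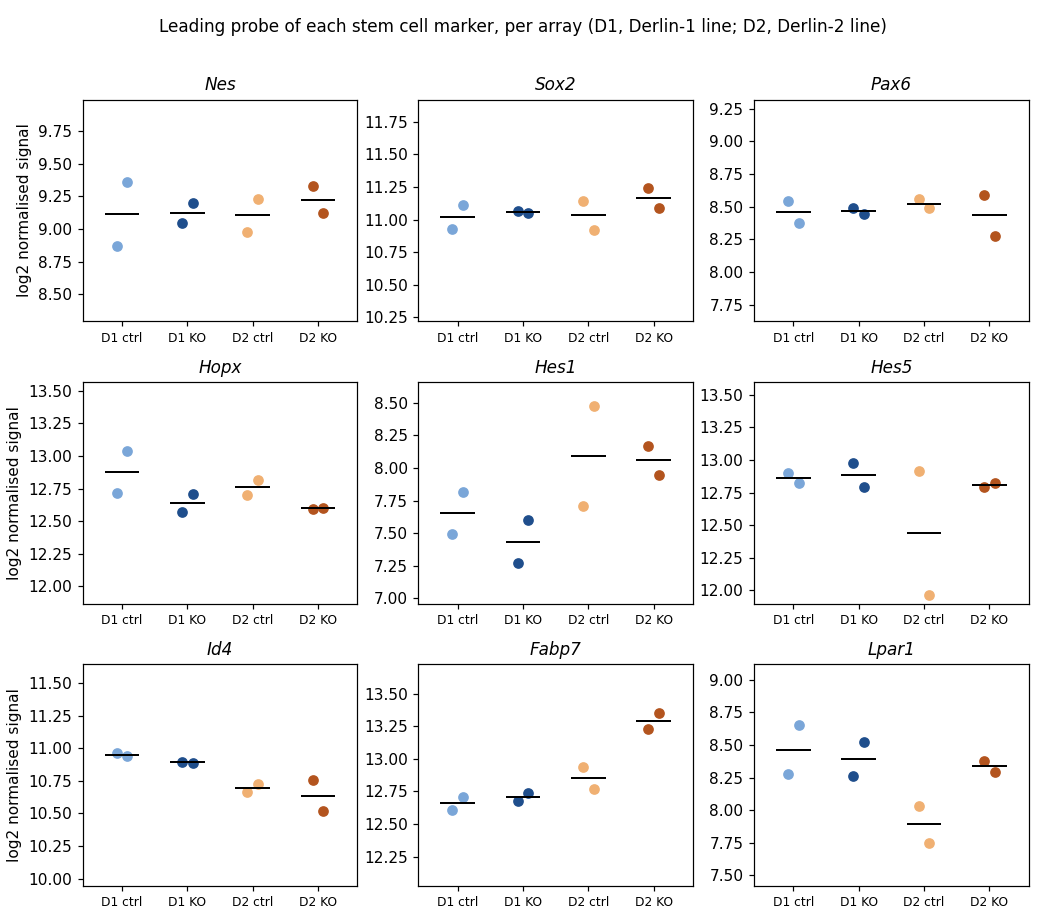
Log2 normalised signal (y axis, 1.7 log2 units tall in each panel) of the leading probe of each marker on the 8 arrays, by group (x axis); points are arrays and bars are group means of 2 arrays. Fabp7 and Lpar1 are higher on both Derlin-2 KO arrays than on both Derlin-2 control arrays, whereas Hopx is lower on KO than on control arrays in both lines.

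Sox2, the transcription factor that maintains stem cell multipotency, was among the markers that varied least. Its log2 signal was 10.93 and 11.11 in Derlin-1 control and 11.07 and 11.05 in Derlin-1 KO. It was 11.15 and 10.92 in Derlin-2 control and 11.24 and 11.09 in Derlin-2 KO. The KO arrays lay within the range of the controls in the Derlin-1 line and overlapped with it in the Derlin-2 line. The differences were 0.042 (SE 0.13, 95% interval -0.27 to 0.36) and 0.14 (SE 0.13, 95% interval -0.18 to 0.45), with a limma adjusted p of 0.9997 and 0.998.

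Pax6, a paired-box transcription factor of neural progenitors, was read by 6 probes, of which 4 were not well above background on any array. The leading probe gave 8.54 and 8.37 in Derlin-1 control, 8.49 and 8.45 in Derlin-1 KO, 8.56 and 8.49 in Derlin-2 control, and 8.59 and 8.28 in Derlin-2 KO. Control and KO arrays overlapped in both lines, and the differences were 0.0097 (SE 0.14) and -0.088 (SE 0.14). The dimmer probe for the same transcript gave 5.55 and 5.35 in Derlin-2 control and 5.57 and 6.12 in Derlin-2 KO, a difference of 0.40 (SE 0.23) that was opposite in sign to that of the leading probe. On this probe the lower KO array stood 0.024 above the higher control array.

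Hopx, an atypical homeodomain protein of quiescent stem cells and astrocytes, was the only one of the 9 markers whose KO arrays lay below the control arrays in both lines. Its log2 signal was 12.71 and 13.04 in Derlin-1 control and 12.57 and 12.71 in Derlin-1 KO, where the nearest arrays of the groups nearly touched. It was 12.70 and 12.82 in Derlin-2 control and 12.59 and 12.60 in Derlin-2 KO. The differences were -0.24 (SE 0.14, 95% interval -0.58 to 0.097) and -0.16 (SE 0.14, 95% interval -0.50 to 0.18). Averaged over both lines the difference was -0.20 (SE 0.097, 95% interval -0.44 to 0.038, limma adjusted p = 1), a level in KO that was lower by 1.15-fold. Among all probes 2.27% lay below the controls in both lines and 2.82% above them, and 0 of the 9 markers lay above. The 10 astrocyte genes, a list without Hopx, summed to 95.7% and 98.6% of the control mean on the Derlin-1 KO arrays and to 92.6% and 88.8% on the Derlin-2 KO arrays, against 97.1% to 103% on the control arrays of both lines. In the Derlin-2 line 6 of these 10 genes were lower in KO and 0 passed the threshold, and 5 of 10 were lower in the Derlin-1 line. All 10 were well above background on every array, and their part in the level of Hopx was not tested.

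Hes1 and Hes5, basic helix-loop-helix repressors downstream of Notch, had the widest spread between replicates. Hes1 gave 7.50 and 7.81 in Derlin-1 control, 7.27 and 7.60 in Derlin-1 KO, 7.71 and 8.48 in Derlin-2 control, and 8.17 and 7.95 in Derlin-2 KO. Its KO arrays overlapped with the controls in both lines, and the differences were -0.22 (SE 0.28) and -0.032 (SE 0.28). The within-group SD of Hes1 was 0.33 and that of Hes5 was 0.34, against a median of 0.14 over all genes.

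Hes5, which carries the 2 RBPJ cores shown above, gave 12.90 and 12.83 in Derlin-1 control and 12.98 and 12.79 in Derlin-1 KO on its leading probe. It gave 12.91 and 11.96 in Derlin-2 control and 12.79 and 12.82 in Derlin-2 KO. A single array, Derlin-2 control 2, was low, while the other 7 lay within 0.18 of each other. The difference in the Derlin-2 line, 0.37 (SE 0.29, adjusted p = 0.998), was -0.11 without that array and 0.84 without Derlin-2 control 1. The dimmer Hes5 probe gave 6.37 and 6.30 in Derlin-1 control and 6.14 and 6.04 in Derlin-1 KO. It gave 5.29 and 4.01 in Derlin-2 control and 5.32 and 5.30 in Derlin-2 KO, and the lowest of these was not well above background. The same Derlin-2 control array was thus low on both probes, and it was the array on which Hes1 was highest. Over the 8 arrays, each centred on the mean of its line, Hes1 and Hes5 had a Pearson r of -0.80, the lowest of the 36 pairs of markers, as a description of arrays that share 2 slides and in which this single array stands far out. In the dimmer probe the KO arrays lay below the controls in the Derlin-1 line (-0.25, SE 0.38) and above them in the Derlin-2 line (0.66, SE 0.38), and Derlin-1 effect minus Derlin-2 effect came to -0.91 (SE 0.54, limma adjusted p = 0.893).

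**Figure D2:**
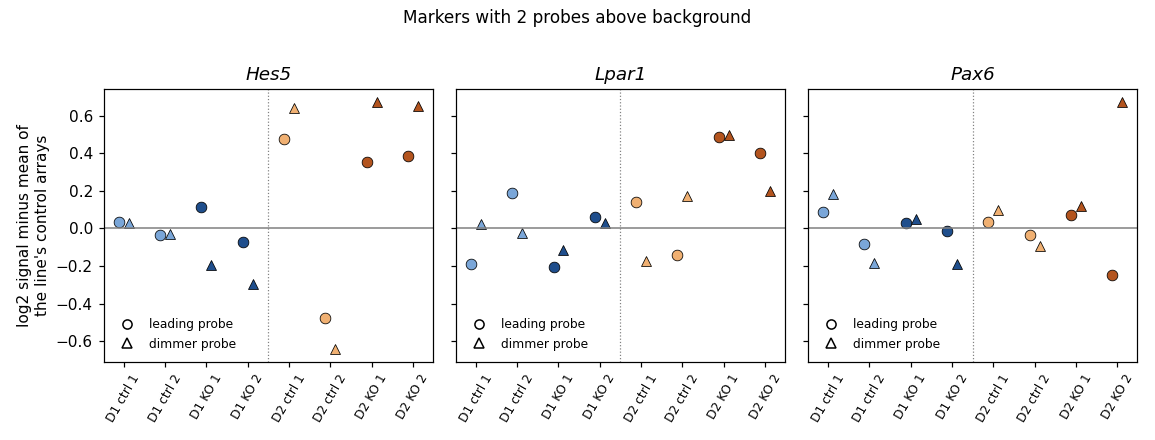
Log2 signal of Hes5, Lpar1 and Pax6 on each array minus the mean of the control arrays of the same line (y axis), with the arrays in order on the x axis; circles are the leading probe and triangles the dimmer probe above background. Both Hes5 probes are low on the array Derlin-2 control 2, the 2 Lpar1 probes are both higher on the Derlin-2 KO arrays, and the 2 Pax6 probes part on Derlin-2 KO 2.

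Id4, a helix-loop-helix protein that lacks a DNA-binding region and sequesters other members of the class, had among the smallest within-group SD of the markers (0.086). It gave 10.96 and 10.94 in Derlin-1 control, 10.90 and 10.89 in Derlin-1 KO, 10.67 and 10.73 in Derlin-2 control, and 10.75 and 10.52 in Derlin-2 KO. In the Derlin-1 line both KO arrays lay just below both controls, and in the Derlin-2 line the KO arrays enclosed the controls. The differences were -0.058 (SE 0.11, 95% interval -0.33 to 0.21) and -0.061 (SE 0.11, 95% interval -0.33 to 0.21). Nes, the intermediate filament whose promoter drove Cre, gave 8.87 and 9.36 in Derlin-1 control, 9.05 and 9.20 in Derlin-1 KO, 8.98 and 9.23 in Derlin-2 control, and 9.33 and 9.12 in Derlin-2 KO. The groups overlapped in both lines, with differences of 0.0068 (SE 0.19, 95% interval -0.47 to 0.48) and 0.12 (SE 0.19, 95% interval -0.35 to 0.59).

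Fabp7, the brain lipid-binding protein of radial glia, had the smallest p-value of the markers. Its only probe gave 12.61 and 12.71 in Derlin-1 control, 12.68 and 12.74 in Derlin-1 KO, 12.94 and 12.77 in Derlin-2 control, and 13.23 and 13.35 in Derlin-2 KO. Both Derlin-2 KO arrays lay above all 6 others, the Derlin-2 controls lay above all Derlin-1 arrays, and the Derlin-1 groups overlapped. The difference was 0.44 in the Derlin-2 line (SE 0.11, 95% interval 0.16 to 0.71, 1.35-fold, limma adjusted p = 0.607) and 0.048 in the Derlin-1 line (SE 0.11, 95% interval -0.22 to 0.32). With any 1 of the 8 arrays left out, the Derlin-2 difference was 0.35 to 0.52. The difference between the lines, Derlin-1 effect minus Derlin-2 effect, was -0.39 (SE 0.16, 95% interval -0.77 to -0.0017, adjusted p = 0.844), so a difference between the effects in the lines was not called. The Fabp7 probe lies in the last eighth of the rows of the array. Probes there had an unadjusted p under 0.05 in 7.0% of cases in the Derlin-2 line against 5.35% elsewhere, while the median difference was 0.016 there and 0.015 elsewhere.

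Lpar1, a receptor for lysophosphatidic acid used to identify hippocampal stem cells, was also higher in Derlin-2 KO before adjustment. Its leading probe gave 8.27 and 8.65 in Derlin-1 control, 8.26 and 8.52 in Derlin-1 KO, 8.03 and 7.75 in Derlin-2 control, and 8.38 and 8.29 in Derlin-2 KO. The KO arrays lay above the controls in the Derlin-2 line and overlapped with them in the Derlin-1 line, where the levels spanned those of Derlin-2 KO. The difference was 0.45 in the Derlin-2 line (SE 0.18, 95% interval 0.0085 to 0.88, 1.36-fold, limma adjusted p = 0.897) and -0.072 in the Derlin-1 line (SE 0.18). A second probe, for another transcript of the gene, gave 4.28 and 4.62 in Derlin-2 control and 4.95 and 4.65 in Derlin-2 KO, a difference of 0.35 (SE 0.16, adjusted p = 0.936) in the same direction, with the nearest arrays 0.030 apart. The difference between the lines on the leading probe was -0.52 (SE 0.25, adjusted p = 0.866).

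The 11 genes of the oligodendrocyte lineage, another source of Lpar1 transcripts, varied between replicates. Their summed signal was 92.7% and 107.3% of the control mean in Derlin-1 control and 88.4% and 113% in Derlin-1 KO. It was 117% and 82.5% in Derlin-2 control and 121% and 105% in Derlin-2 KO. Within each pair of replicates the array with the higher oligodendrocyte level was also the array with the higher level of the leading Lpar1 probe, in all 4 groups. The second Lpar1 probe followed this order in both KO groups and ran against it in both control groups. Yet Derlin-2 KO 2, with an oligodendrocyte mean 0.086 below that of Derlin-2 control 1, had a Lpar1 level 0.26 above it. All 11 genes were well above background on every array, 7 of 11 were higher and 4 lower in Derlin-2 KO, 0 passed the threshold, and their part in the level of Lpar1 was not tested.

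**Figure D3:**
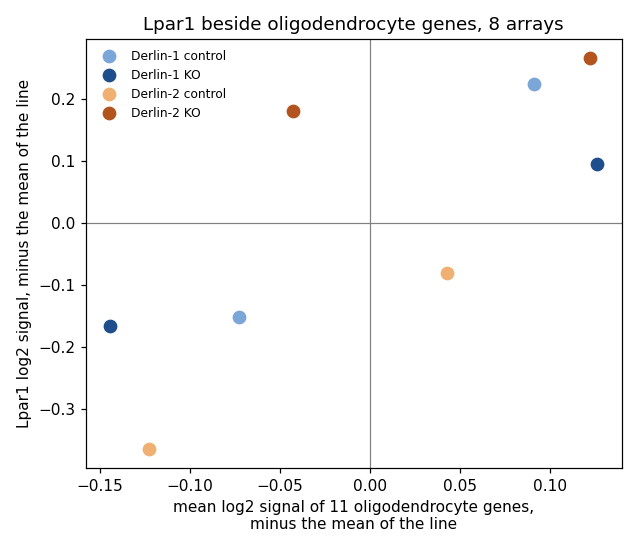
Log2 signal of the leading Lpar1 probe (y axis) and mean log2 signal of 11 oligodendrocyte genes (x axis) on the 8 arrays, each minus the mean over the 4 arrays of its line; colours are the groups. The 2 Derlin-2 KO arrays have the highest Lpar1 of their line, 0.27 and 0.18 above its mean, at oligodendrocyte levels 0.12 above and 0.043 below the mean.

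**Figure D4:**
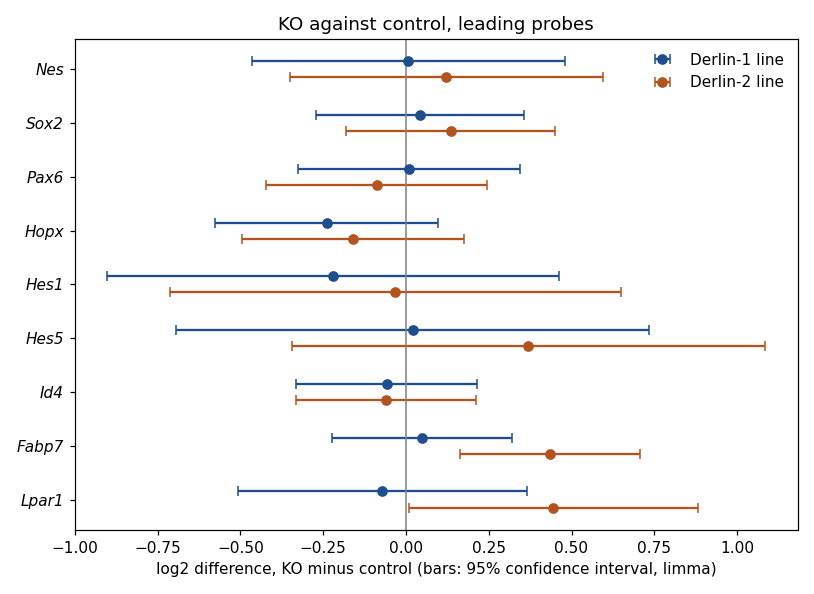
Log2 difference of KO minus control (x axis) for the leading probe of each marker (y axis) in the Derlin-1 line (blue) and the Derlin-2 line (brown); points are limma estimates from 2 against 2 arrays and bars their 95% confidence intervals. The intervals of Fabp7 (0.16 to 0.71) and Lpar1 (0.0085 to 0.88) in the Derlin-2 line lie above 0 and all others include 0.

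Counted by arrays, 2 of the 9 leading probes (22.2%) did not overlap between groups in the Derlin-1 line, against 35.5% of all probes. Both, Hopx and Id4, were lower in KO, a side on which 16.8% of all probes lay, and 0 were higher, against 18.8%. In the Derlin-2 line 3 (33.3%) did not overlap, Hopx lower and Fabp7 and Lpar1 higher in KO, against 31.5% of all probes. Over all 12 probes that passed the filter, KO lay above control for 5 (41.7%) in the Derlin-2 line, against 18.1% of all probes. But these came from 4 genes, and the dimmer Hes5 and Pax6 probes and both Lpar1 probes were among them. The nearest arrays of control and KO were 0.024 apart for the dimmer Pax6 probe and 0.030 for the second Lpar1 probe. For the dimmer Hes5 probe they gave 5.292 in control and 5.300 in KO. KO lay below control for 1 of the 12 (8.33%), the Hopx probe, against 13.4% of all probes. For the difference between the lines 0 of 9 genes were called, against 0.00754% of all probes, and 1 had an unadjusted p under 0.05, Fabp7, against 5.90%. That count was 0 without the last rows of the array and when any 1 array except Derlin-1 control 1 or Derlin-2 control 1 was left out, and 2 without Derlin-2 control 1 or with the mean of the probes of a gene. For the average over both lines 0 of 9 were called, against 0.0126%, and 1 had an unadjusted p under 0.05, Fabp7 with 0.24 (SE 0.079, adjusted p = 1), against 4.39%. It was 0 without the last rows, with the replicate number as a block, and without Derlin-1 KO 1, Derlin-1 KO 2, Derlin-2 control 2 or Derlin-2 KO 2, and 2 without Derlin-2 control 1. Fabp7, the gene counted for the difference and for the average, has no probe outside the last rows and could not be counted without them. The intervals show what these arrays could resolve. The SE of the 9 differences ranged from 0.11 to 0.29, and the 95% intervals reached down to -0.90 for Hes1 and up to 0.73 for Hes5 in the Derlin-1 line, and up to 1.08 for Hes5 in the Derlin-2 line.

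Fabp7 and Id4 were the only markers whose levels did not overlap between the lines. The lines lay on separate slides, so slide and line cannot be told apart in this comparison or in the order of the groups below. The share of all probes without such an overlap is not given here. Fabp7 was lower in the Derlin-1 line than in the Derlin-2 line by 0.39 in the mean of 4 arrays, and Id4 was higher by 0.25. Hes1 was lower in the Derlin-1 line by 0.53, with an overlap of single arrays. The order of the 4 group means therefore differed between markers, Derlin-2 KO being highest for Fabp7, Sox2 and Nes, Derlin-1 control for Hopx, Lpar1 and Id4, Derlin-2 control for Hes1 and Pax6, and Derlin-1 KO for Hes5. In this order each group overlapped with its neighbour for Nes, Hopx and Pax6, and in Sox2 the arrays separated only between Derlin-2 KO and Derlin-1 KO.

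The 9 markers did not move as one. Of the 36 pairs, 20 correlated positively and 16 negatively over the 8 line-centred arrays, with a median r of 0.035. The highest r was 0.85 for Fabp7 with Lpar1, the 2 genes that were both higher in Derlin-2 KO, and Pax6 with Id4 and Sox2 with Lpar1 followed with 0.79 each. Against the mean of the other 8 markers, r was highest for Lpar1 (0.66), Sox2 (0.62) and Nes (0.57) and lowest for Pax6 (-0.13). Among 18046 other genes the profiles most like the mean of the 9 markers over the 8 arrays were those of G630018N14Rik (r = 0.97), Bpgm (0.97), Foxf2 (0.96), Pim1 (0.95) and Espl1 (0.94). These are the highest of 18046 values over 8 line-centred arrays, picked by this search, and are a description without a test. Each of these genes differed by at most 0.24 between KO and control.

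Genes of the pathways around these markers were counted in lists. For comparison, 53.9% of all genes were lower in Derlin-1 KO and 54.3% were higher in Derlin-2 KO. Of 18 other genes of the Notch pathway, 5 were higher and 13 lower in Derlin-1 KO (median -0.11), and 11 were higher and 7 lower in Derlin-2 KO (median 0.079), with 0 called in either line. The receptor Notch1 gave 11.92 and 12.78 in Derlin-1 control and 13.16 and 13.09 in Derlin-1 KO, a difference of 0.78 (SE 0.30, adjusted p = 0.9997). Heyl, a Notch target related to the Hes genes, gave 6.22 and 6.03 in Derlin-2 control and 6.80 and 6.55 in Derlin-2 KO, a difference of 0.55 (SE 0.13, limma adjusted p = 0.569). The KO arrays lay above the controls in both cases. For the related Hey2 the Derlin-2 line gave a difference of 0.31 (SE 0.18) and the Derlin-1 line 0.16 (SE 0.18). For the dim ligand Dll4 the Derlin-1 line gave -0.29 (SE 0.15) and the Derlin-2 line -0.24 (SE 0.15). Its KO arrays lay below the controls in both lines, as for 2.27% of all probes. Of 18 genes of the BMP and Id pathway, 7 were higher in Derlin-1 KO and 11 in Derlin-2 KO, with medians of -0.018 and 0.019 and 0 called. The genes with the smallest unadjusted p there were Id3 (-0.20, SE 0.14) and the BMP antagonist Grem1 (0.55, SE 0.44) in the Derlin-1 line, and Id1 (-0.31, SE 0.18) and the inhibitory Smad6 (-0.16, SE 0.11) in the Derlin-2 line.

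The list of 16 other radial glia-like stem cell genes was spread around 0 in the Derlin-1 line and lay mostly above it in the Derlin-2 line. In Derlin-1 KO 6 were higher and 10 lower (median -0.023), whereas in Derlin-2 KO 14 were higher and 2 lower (median 0.20), and both KO arrays lay above both controls for 8 of the 16 and below them for 0, against 18.1% and 13.4% of all probes. Of all genes 54.3% were higher in Derlin-2 KO. None was called in either line (0 by limma after adjustment, and 0 at an unadjusted p under 0.05). The growth factor receptor Egfr, present on activated stem cells, differed by 0.25 (SE 0.11, adjusted p = 0.918) in the Derlin-2 line. Gfap, the filament of astrocytes and radial glia, differed by 0.31 (SE 0.14, adjusted p = 0.9997) in the Derlin-1 line, on a probe in the last eighth of the rows.

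**Figure D5:**
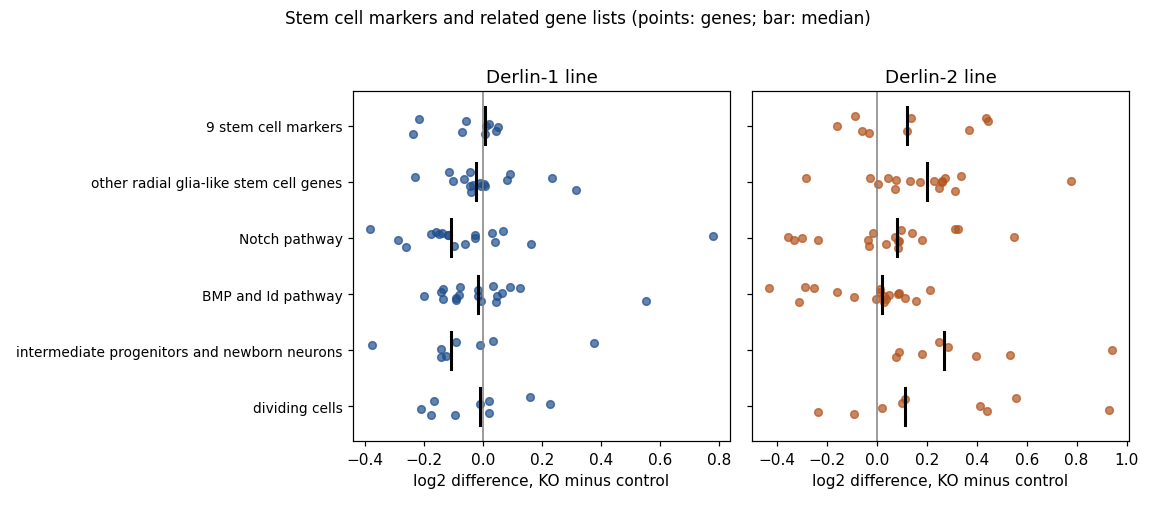
Log2 differences of KO minus control (x axis) in the Derlin-1 line (left) and the Derlin-2 line (right) for the 9 markers and 5 gene lists (y axis); points are genes, scattered vertically for legibility, and black bars are medians. In the Derlin-2 line the median is 0.20 for the other radial glia-like genes and 0.27 for the newborn neuron list, against 0.12 for the 9 markers; in the Derlin-1 line all 6 medians lie between -0.11 and 0.0068.

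Lists of other cell types were counted in the same way. All 8 measured genes of intermediate progenitors and newborn neurons were higher in Derlin-2 KO (median 0.27), against 54.3% of all genes. For 6 of the 8 both KO arrays lay above both controls, against 18.1% of all probes. The summed signal of the list was 116% and 112% of the control mean there against 103% and 97.4% in the controls. This sum is weighted to the brightest genes, Tubb3 (difference 0.078, SE 0.11) and Neurod1 (0.28, SE 0.19). In Derlin-1 KO 2 of the 8 genes were higher and 6 lower (median -0.11). Of 9 measured genes of dividing cells, 7 were higher in Derlin-2 KO (median 0.11) and 2 were lower. For 5 of the 9 both KO arrays lay above both controls, against the same 18.1% of all probes. Their summed signals were 110% and 106% against 98.6% and 101.4%, a sum weighted to the brightest gene, Ccnd2 (difference 0.11, SE 0.11). No gene of either list was called. The genes with an unadjusted p under 0.05 in the Derlin-2 line, which 5.55% of all probes had, named after their values were seen, were Eomes (0.94, SE 0.25), Igfbpl1 (0.53, SE 0.10) and Sox11 (0.39, SE 0.15) of the first list and Top2a (0.93, SE 0.17) and Ccna2 (0.56, SE 0.18) of the second. In Derlin-2 KO 6 of 8 genes of endothelium and pericytes were higher as well (median 0.16). So were 5 of 6 of microglia (median 0.10) and 7 of 11 of oligodendrocytes (median 0.094). Of choroid plexus and ependyma 4 of 6 were higher (median 0.11). Only 3 of 6 genes of CA pyramidal neurons (median -0.036) and 2 of 6 of granule neurons (median -0.056) were higher. Of astrocytes 4 of 10 were higher and 6 lower (median -0.15). On the Derlin-2 KO arrays summed signals were 93.0% to 93.9% for granule neurons, against 95.7% and 104% on the Derlin-2 control arrays. They were 95.7% to 99.6% for CA pyramidal neurons, against 98.4% and 102%. Microglia gave 96.2% to 104% against 91.3% and 109%, and endothelium and pericytes 99.8% to 103% against 98.2% and 102%. These sums too are weighted to the brightest genes, and those of the Derlin-1 line are not given here. The choroid plexus list ranged from 62.2% to 138% between the Derlin-2 control arrays. The part of these cells in the levels of the 9 markers was not tested.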

How the data were processed

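The deposited files of the scanner give a spot intensity from which Agilent Feature Extraction (10.7.1.1 per the labels) had removed the background and spatial trend. The authors' deposited tables hold log2 values, which were quantile-normalized and set to a median baseline in GeneSpring per the study's methods, and served here only as an alternative. Columns with the authors' own comparisons were not used. The methods name gene set enrichment analysis for the arrays. They also state that duplicate signals were averaged to find genes that differed between mouse lines, and they name no test of single genes.

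Signals below 1 were set to 1, and log2 signals were quantile-normalized across the 8 arrays (59305 gene spots each, 3671 control spots and outlier-flagged spots left out), spots of a probe were averaged, and probes well above background on both arrays of at least 1 group were kept. Gene names are those of the deposited annotation. A model of 4 group means was fitted with limma (3.58.1, R 4.3.3), with 4 residual and 2.07 prior degrees of freedom, and p-values were two-sided and adjusted by the Benjamini-Hochberg method over all probes tested in a contrast. An exact test of 2 arrays against 2 cannot go below p = 0.333. The number of arrays limits the precision. Summed signals of a list are sums of linear normalized signal over the leading probes, as a percent of the mean of the control arrays of the line. The analysis was tested on simulated data.

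The 9 markers and the lists were chosen with earlier results of these data known. All probes of the markers are described, with, for each of 3 pathway lists, the 2 genes of smallest unadjusted p in each line (1 of these genes is not reported here), and the 5 genes most like the mean of the markers. Alternatives were 75th percentile scaling, normexp background correction with an offset of 50 on median spot and background signals (the files hold no mean signal), the deposited values, no filter, the mean of the probes of a gene, omission of the last eighth of the 384 array rows, the 4 arrays of a line alone, the replicate number as a block, and omission of each array. Promoter letters were searched on both strands in RefSeq windows (GRCm38.p6); the window of Hes1 was not used here.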

Additional observations from a re-analysis of the deposited data

How the results depend on the processing

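In all 4 comparisons, the 2 lines, their difference and their average, 0 of the 9 markers passed the adjusted threshold under every alternative run. The number with an unadjusted p under 0.05 was less stable, with 0 to 3 in the Derlin-2 line, 0 to 2 for the difference and for the average, and 0 to 1 in the Derlin-1 line. Fabp7 was higher in Derlin-2 KO under each alternative except the omission of the last rows, where it has no value, with differences of 0.35 to 0.52. Lpar1 was higher in Derlin-2 KO under every alternative, with differences of 0.30 to 0.59. Hopx was lower in both lines and in their average under each. Of 143 values of single markers under alternatives, 15 changed sign for Derlin-1 and 8 for Derlin-2. The median of the markers in the Derlin-1 line ranged from -0.065 to 0.0068 over all alternatives and had no steady sign. The replicate numbers were tested as pairs. Deviations of same-numbered samples from their group means had an r of 0.247 for Derlin-1 and -0.0977 for Derlin-2, and with 1 pair of deviations in a line and lines that differ this does not establish pairs, so the numbers were treated as shared names only. With the replicate number as a block the median difference of the markers remained 0.0068 for Derlin-1 and 0.12 for Derlin-2, 0 markers were called, and calls over all probes in the Derlin-2 line went from 18 to 0.

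With 1 array left out, the median of the markers ranged from -0.0046 to 0.21 in the Derlin-2 line and from -0.31 to -0.011 for the difference between the lines. With 1 array left out, differences in the Derlin-1 line ranged from -0.24 to 0.25 for Nes, -0.052 to 0.14 for Sox2, -0.072 to 0.11 for Hes5, -0.0025 to 0.099 for Fabp7, -0.075 to 0.095 for Pax6 and -0.26 to 0.12 for Lpar1. Those of Derlin-2 KO ranged from -0.0046 to 0.25 for Nes, -0.42 to 0.35 for Hes1, -0.11 to 0.84 for Hes5, -0.25 to 0.070 for Pax6 and -0.18 to 0.055 for Id4. For the difference between the lines they ranged from -0.36 to 0.13 for Nes, -0.21 to 0.020 for Sox2, -0.57 to 0.20 for Hes1, -0.82 to 0.13 for Hes5, -0.24 to 0.084 for Hopx, -0.060 to 0.26 for Pax6 and -0.11 to 0.12 for Id4, and for the average of the lines from -0.057 to 0.19 for Nes, -0.32 to 0.067 for Hes1, -0.043 to 0.43 for Hes5 and -0.12 to 0.040 for Pax6.

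Hes5 in the Derlin-1 line was -0.019 with the deposited values, -0.11 as the mean of its probes and -0.25 without the last rows of the array, where the dimmer probe takes the place of the leading one. Pax6 as the mean of its probes was -0.030 for Derlin-1, 0.15 for Derlin-2, -0.18 between the lines and 0.062 for their average. With normexp, Lpar1 was 0.0028 in the Derlin-1 line and Pax6 was 0.026 in the Derlin-2 line and 0.042 in the average. The difference between the lines for Id4 was -0.0054 with 75th percentile scaling. The causes of the changes with normexp, with the deposited values and with scaling were not tested.

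Over all probes, the 18 calls in the Derlin-2 line became 0 to 29 under the other settings and 4 to 54 with 1 array left out. The 3 calls for the difference became 0 to 5 and 0 to 20, the 5 for the average 0 to 7 and 0 to 25, and the 0 in the Derlin-1 line became 0 and 0 to 1. Fabp7 has no second probe and so no value without the last rows of the array, and the deposited values and the fit to a single line give neither the difference between the lines nor their average. With 1 array left out, the lone sample of a group was assumed to vary like the other groups.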
